A study of Mus musculus with 5 samples.

Results

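The genes described here are 10 markers of lung endothelium, chosen by name: Ace, Eng, Pecam1, Klf2, S1pr1, Sox18, Tek, Tie1, Kdr and Cdh5. The choice was made with earlier results of these data known. Each has 1 probe whose annotation names only that gene. Of the 10, 8 had a value on all 5 arrays, and the probes of Kdr and Cdh5 were blank on every array, so these 2 genes have no measurement here. The 8 measured genes stand among 9715 genes of the series with values on at least 4 arrays, out of 13410 genes that the annotation names.

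The study measured lung RNA of C3H mice, an inbred strain, on 2-colour arrays. The ova group is 5 mice that were sensitised to ovalbumin, an egg-white protein used as an allergen, and then challenged with it. The control is 1 pool of RNA from lungs of control C3H mice, against which each ova mouse was hybridised on its own array, and all RNA was amplified beforehand. The mice's age and sex, the doses and days of ovalbumin, the treatment of the controls and how many control mice were pooled are not stated in the labels, and the pool counts as 1 control sample without a spread of its own.

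Endothelial cells line all blood and lymph vessels, and the lung, with its dense capillary bed around the alveoli, is among the organs richest in them. Their identity is kept up by growth factor receptors (Kdr for VEGF, Tek and Tie1 for the angiopoietin system, Eng for BMP ligands), by the lipid receptor S1pr1, by transcription factors such as Klf2 and Sox18, and by the adhesion proteins Pecam1 and Cdh5 at cell contacts. Ace, the angiotensin-converting enzyme, sits on the lumenal face of lung capillaries. Some of these genes are also expressed outside endothelium: naive lymphocytes also express Klf2 and S1pr1, and platelets and leukocytes carry Pecam1.

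The deposited value of a probe is the log ratio of the ova mouse and the control pool, with blanks for missing spots. Its numerator is not stated, nor is its log base, taken here as base 2. The titles name the ova mouse first, yet textbook response genes of the allergic lung were far below 0, among them Retnla, a secreted protein of allergic lungs, at -4.79 ± 0.30 and Clca1, a goblet cell gene, at -4.33 ± 0.40 (SD, n = 5 each). Another, the decoy receptor gene Il13ra2, was at 0.01 on 4 arrays. Genes are therefore described as above or below 0 in the deposited ratio, with no statement of which lung held more. Between 11778 and 13320 probes had a value per array, and the 10 pairs of arrays correlated across probes between 0.643 and 0.83, so all arrays ran the same way. Mouse 1 had the smallest ratios, with an SD of 0.20 over its probes; that of the other arrays lay between 0.32 and 0.38. Ratios carry no level, so the lung label could not be checked. Values were present for 7 of 9 listed alveolar type 2 and club cell markers. They were also present for 6 of 8 heart muscle genes and for 9715 of all 13410 named genes, so presence does not identify the tissue.

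All 8 measured endothelial genes had a mean log ratio above 0, and 7 passed the test on that side: S1pr1, Klf2, Ace, Sox18, Eng, Tek and Tie1. Pecam1 did not pass. These 7 lay above 0 in each of the 5 mice and on the side opposite to Retnla and Clca1. A gene passed where limma's moderated test against 0 gave a Benjamini-Hochberg adjusted p under 0.05 over all 9715 genes, with each array centred on its median. Over all genes tested 12.3% passed above 0, 15.2% passed below 0, and 19.2% lay above 0 on every array with a value. Because the genes were chosen with earlier results of these data known, their count beside these shares is a description only. The median mean ratio was 0.66 over the 8 genes and 0.00 over all genes. Whether a ratio in whole lung reflects a different number of endothelial cells or a different amount of RNA per cell cannot be told apart in bulk samples.

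**Figure D1:**
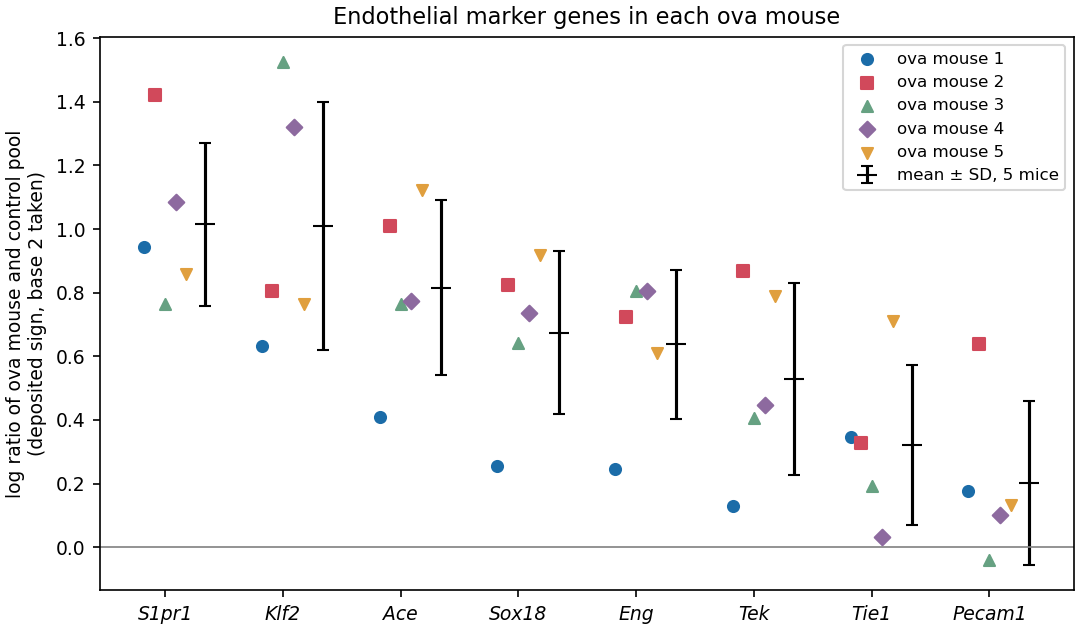
Log ratio of each ova mouse and the control pool (vertical axis, deposited sign, base 2 taken) for the 8 measured endothelial genes, ordered by mean. Each symbol is 1 ova mouse and the bars are the mean ± SD of 5 mice. All points lie above 0 except Pecam1 in mouse 3, at -0.04.

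Among the receptors, S1pr1 had the largest mean ratio. It encodes the sphingosine 1-phosphate receptor that tightens the endothelial barrier and guides lymphocytes out of tissue. Its log ratios were 0.95, 1.42, 0.76, 1.09 and 0.86 in ova mice 1 to 5. Mouse 2 stood highest and mouse 3 lowest, and the smallest of the 5 was well above 0. The mean was 1.01 ± 0.26 (SD, n = 5), which is 2.02-fold under base 2 and 2.76-fold if the base were e, with a limma adjusted p of 0.000634. S1pr1 ranked 11 of 9715 genes counted from the most positive.

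Eng encodes endoglin, a co-receptor for BMP ligands whose loss in humans causes hereditary haemorrhagic telangiectasia. Its log ratios were 0.25, 0.72, 0.81, 0.81 and 0.61 in ova mice 1 to 5. Mouse 1 was lowest and the other mice were higher. The mean was 0.64 ± 0.23 (n = 5, limma adjusted p = 0.00212).

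Tek encodes TIE2, the angiopoietin receptor that holds vessels quiescent. Its log ratios were 0.13, 0.87, 0.41, 0.45 and 0.79 in ova mice 1 to 5. Mice 2 and 5 were high and mouse 1 was low. The mean was 0.53 ± 0.30 (n = 5, limma adjusted p = 0.00876, and 0.0878 when tested with limma's treat against a minimum size of 0.2). Of the measured probes 6, 18 or 24 IDs away, the one naming Cyp2b10 averaged 0.59, and those naming Hspa1l, H2-M3 and 9130221H12Rik averaged 0.10, 0.18 and 0.01.

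Tie1, the orphan partner receptor of TIE2, had log ratios of 0.35, 0.33, 0.19, 0.03 and 0.71 in ova mice 1 to 5. Mouse 4 was close to 0 and mouse 5 was highest, so the order of the mice was not that of Tek. The mean was 0.32 ± 0.25 (n = 5, limma adjusted p = 0.0317). The call rested on the full set of arrays: adjusted p was 0.0647 without mouse 1 (mean 0.32), 0.0803 without mouse 2 (0.32), 0.065 without mouse 3 (0.35) and 0.0669 without mouse 5 (0.22), and it passed without mouse 4 at 0.0233 (0.39). Over its 16 alternatives the adjusted p ranged between 0.019 and 0.662.

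Of the transcription factors, Klf2 is the factor that blood flow switches on in endothelium and that drives anticoagulant and anti-inflammatory genes there. Its log ratios were 0.63, 0.81, 1.53, 1.32 and 0.76 in ova mice 1 to 5. Mice 3 and 4 formed an upper pair and mice 1, 2 and 5 a lower set. The mean was 1.01 ± 0.39 (n = 5, 2.01-fold under base 2, limma adjusted p = 0.00195), and Klf2 ranked 12 of 9715.

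Sox18, a SOXF factor of vessel and lymphatic development, had log ratios of 0.26, 0.83, 0.64, 0.74 and 0.92 in ova mice 1 to 5. Mouse 1 was the lowest and the others lay close together. The mean was 0.67 ± 0.26 (n = 5, limma adjusted p = 0.00224). A probe with no gene name 6 IDs from that of Sox18 averaged 1.09, and the probe 6 IDs away on the other side, naming Stt3a, averaged -0.22. Across the array, probes 6 IDs apart that do not name the same gene had a Spearman correlation of 0.187 over 9138 pairs. It was 0.130 at 18 IDs, 0.135 at 24 IDs and 0.031 at 1 ID. Probes share the arrays and are not independent. Measured probes 6, 18 or 24 IDs away averaged between -0.85 and 0.18 for S1pr1 and between -0.17 and 0.27 for Klf2. They averaged between -0.01 and 0.16 for Eng and between -0.14 and 0.16 for Tie1. For Pecam1 they averaged between -1.47 and 0.67, the latter being the Sox18 probe. The part of probe proximity in the Sox18 ratio and in those of the other genes was not tested.

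Ace encodes the ectoenzyme that makes angiotensin II and degrades bradykinin. Its log ratios were 0.41, 1.01, 0.76, 0.77 and 1.12 in ova mice 1 to 5. Mouse 1 was lowest and mice 2 and 5 were highest. The mean was 0.82 ± 0.27 (n = 5, limma adjusted p = 0.00141), and Ace ranked 37 of 9715. Of the measured probes 6, 18 or 24 IDs away, those naming Rhob and Cd81 averaged 0.93 and 0.57, and those naming S100a3, Nras and Cd5 averaged -0.13, -0.13 and -0.08.

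The adhesion genes gave 1 measurement. Pecam1, the CD31 protein of endothelial contacts, had log ratios of 0.18, 0.64, -0.04, 0.10 and 0.13 in ova mice 1 to 5. Only mouse 2 stood clearly above 0, and mouse 3 was just below it. The mean was 0.20 ± 0.26 with a 95% interval between -0.01 and 0.41 (n = 5, limma adjusted p = 0.139). Without mouse 2 the mean was 0.09 (adjusted p = 0.292, and 0.0994 to 1 over its 16 alternatives). The probe of Cdh5, which encodes VE-cadherin, and that of Kdr, which encodes VEGF receptor 2, carried no value.

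**Figure D2:**
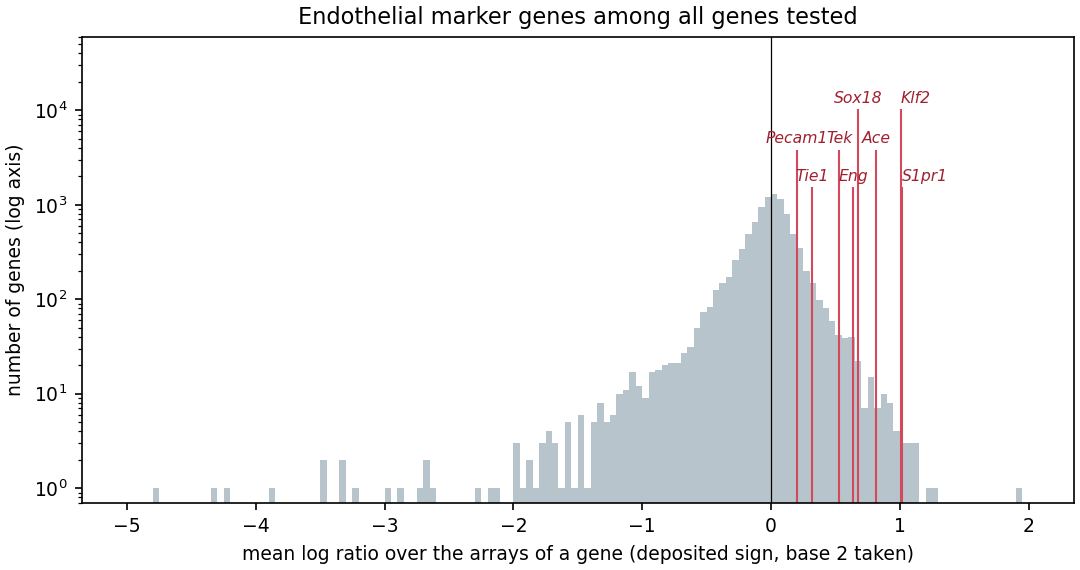
Number of genes (vertical, log axis) by mean log ratio (horizontal, deposited sign, base 2 taken) for all 9715 genes tested, with the 8 endothelial genes marked by red lines. S1pr1 and Klf2, at 1.01 each, rank 11 and 12 from the positive end, which reaches 1.92, while the negative end reaches -4.79.

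The promoter windows of 4 of these genes are shown because their genes passed together and differ in the letters they carry. The sequences are RefSeq's, from build GRCm38.p6, and are 300 bases long each, mostly upstream of a gene's annotated start; 6 of the 10 genes had an entry (Ace, Eng, Klf2, Tek, Tie1 and Kdr). Capitals mark matches on either strand to the GC box GGGCGG, the CACCC box CACCC, the GATA motif AGATAA and the MEF2 box. The windows are chr8:72318812-72319111, plus strand for Klf2, chr11:105967698-105967997, plus strand for the upstream of the 2 listed starts of Ace, chr2:32646345-32646644, plus strand for Eng and chr4:94739039-94739338, plus strand for Tek.
Klf2: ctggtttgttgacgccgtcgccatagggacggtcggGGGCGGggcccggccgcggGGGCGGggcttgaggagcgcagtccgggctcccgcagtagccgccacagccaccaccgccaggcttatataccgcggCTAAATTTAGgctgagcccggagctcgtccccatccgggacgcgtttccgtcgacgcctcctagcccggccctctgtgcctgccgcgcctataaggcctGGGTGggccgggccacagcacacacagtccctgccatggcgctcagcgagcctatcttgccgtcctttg
Ace: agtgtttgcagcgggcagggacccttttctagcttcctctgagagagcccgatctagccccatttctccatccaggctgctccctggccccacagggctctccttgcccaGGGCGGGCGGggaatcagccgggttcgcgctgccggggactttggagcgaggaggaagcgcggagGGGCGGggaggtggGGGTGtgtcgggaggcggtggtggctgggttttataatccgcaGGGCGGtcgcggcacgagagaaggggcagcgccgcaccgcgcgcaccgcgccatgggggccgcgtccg
Eng: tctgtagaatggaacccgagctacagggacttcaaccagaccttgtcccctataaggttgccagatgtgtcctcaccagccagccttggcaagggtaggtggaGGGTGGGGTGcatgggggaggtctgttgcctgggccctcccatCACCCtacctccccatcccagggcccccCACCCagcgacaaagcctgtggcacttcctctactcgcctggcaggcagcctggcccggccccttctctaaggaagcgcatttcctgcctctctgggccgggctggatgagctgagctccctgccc
Tek: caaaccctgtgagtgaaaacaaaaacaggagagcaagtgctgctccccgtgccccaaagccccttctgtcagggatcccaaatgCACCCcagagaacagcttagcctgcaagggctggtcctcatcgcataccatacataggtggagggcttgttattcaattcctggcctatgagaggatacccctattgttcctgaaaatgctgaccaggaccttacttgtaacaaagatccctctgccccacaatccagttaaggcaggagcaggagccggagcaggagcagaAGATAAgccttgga
The MEF2 box was in the Klf2 window and in 0.557% of 32851 promoter windows of the same length, and in none of the other 5 genes' windows. MEF2 factors are known to act on the Klf2 promoter downstream of ERK5 (Mapk7) signalling. The GC box was in 3 of the 6 windows, those of Ace, Klf2 and Kdr, against 35.7% of all windows. CACCC, which KLF proteins can bind, was in 6 of 6 windows and in 57.5% of all. AGATAA was in the Tek window and in 11.2% of all windows. The ETS motif CCGGAA was in the Kdr window alone of the 6, against 14.9% of all windows, and TATAAA in that of Ace, against 13.6%. The matches describe letters and not bound sites.

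The order of the mean ratios was S1pr1, Klf2, Ace, Sox18, Eng, Tek, Tie1 and Pecam1. Between neighbours in this order the paired differences within mice were mostly smaller than their spread. S1pr1 minus Klf2 was 0.00 ± 0.53, Klf2 minus Ace 0.19 ± 0.48, Sox18 minus Eng 0.04 ± 0.18 and Tie1 minus Pecam1 0.12 ± 0.33 (SD, n = 5). Ace minus Sox18, 0.14 ± 0.07, was the neighbouring pair of 7 in which the same gene was higher in every mouse. An exact two-sided sign-flip permutation test cannot go below 0.0625 with 5 mice, the value reached by Ace over Sox18, and over the 7 neighbouring pairs the lowest Benjamini-Hochberg adjusted value was 0.438. This test could not have passed 0.05 for any pair, so the differences are given as a description.

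Among the pairs that are not neighbours the spread of the difference varied widely. S1pr1 minus Pecam1 was 0.81 ± 0.10, with S1pr1 higher in 5 of 5 mice, although both genes varied by about 0.26 (SD) between mice. Ace minus Tek was 0.29 ± 0.09, again in 5 of 5 mice. Klf2 minus Tek was 0.48 ± 0.53, with Klf2 higher in 3 mice. In 12 of the 28 pairs of genes the one with the larger mean was higher in every mouse.

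The mice differed in the same genes. The mean over the 8 genes was 0.39 in mouse 1, 0.83 in mouse 2, 0.63 in mouse 3, 0.66 in mouse 4 and 0.74 in mouse 5. Mouse 1 gave the lowest ratio for 5 of the 8 genes, and for 53.9% of the 1100 other genes that passed above 0 with 5 values. The ratio in mouse 1 over the mean of the other mice had a median of 0.51 in the 8 genes and 0.54 in those 1100 genes. The lower values of mouse 1 thus ran through the positive side of the array as a whole. S1pr1 (0.92), Tie1 (1.09) and Pecam1 (0.85) had ratios in mouse 1 near the mean of the other mice, whereas Tek (0.21) had the smallest share. Without mouse 1, 6 of the 8 genes passed, Tie1 being the gene lost.

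The genes whose 5 ratios were most like the average of the 8 genes were found by the root mean square difference over the 5 arrays, among 8016 other genes with 5 values. Fzd4, the Frizzled receptor for norrin in vessels, was nearest at 0.06, with log ratios of 0.33, 0.93, 0.58, 0.65 and 0.74 in ova mice 1 to 5. Pir, which encodes an iron-binding nuclear protein, followed at 0.07. Cav2, a caveolin gene of endothelium and alveolar type 1 cells, came next, also at 0.07. The list went on with 5530400B01Rik and Bex2 at 0.08 each and Dpep3 at 0.09.

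The partners of the marker genes were then read from the same fit, by pathway. Over all genes 12.3% passed above 0 and 15.2% below, and every list count below is to be read beside these shares. At an unadjusted limma p under 0.05, 1787 of all 9715 genes lay above 0 and 2120 below. The counts above 0 in the flow response list (2 of 13) and the renin, angiotensin and kinin list (1 of 6) were near the share of all genes. Those for sphingosine 1-phosphate (2 of 9), endoglin and BMP (3 of 13) and angiopoietin and TIE (2 of 7) rest on few genes. They are not read as differing from that share. Nor are the pathway counts below 0, which were 2 for VEGF and at most 1 in any other list. Of 9 measured VEGF pathway genes, 5 passed above 0 and 2 below, with a median of 0.36. The ligand genes Vegfd (0.60 ± 0.17), Vegfa (0.56 ± 0.34), Vegfc (0.42 ± 0.23) and Vegfb (0.36 ± 0.17) passed above 0 (SD, n = 5 each, limma adjusted p between 0.00113 and 0.0104). Pgf, the placental growth factor gene, passed below 0 at -0.38 ± 0.18 and was below 0 in all 5 mice. The receptor gene Flt1 passed at 0.38 ± 0.33, with a value of -0.03 in mouse 1, and lost its call without mouse 2 (0.105), mouse 3 (0.0932), mouse 4 (0.0615) or mouse 5 (0.136). Flt4, the lymphatic receptor gene, gave 0.06 and did not pass. Hif1a, a hypoxia-response factor gene that acts upstream of Vegfa, passed below 0 at -0.16 ± 0.08, with adjusted p of 0.0889, 0.131, 0.0886 and 0.103 without mice 2, 3, 4 and 5.

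Around Tek and Tie1, 2 of 7 measured genes passed above 0 and 1 below. Grb14, an adaptor that binds activated TIE2, passed at 0.37 ± 0.07 with values between 0.29 and 0.47. Ptprb, which encodes the endothelial phosphatase VE-PTP that dephosphorylates TIE2, passed at 0.21 ± 0.16 and lost its call without mice 2, 3 and 5 (0.125, 0.13 and 0.131). Dok2, an adaptor of TIE2 that leukocytes also express, passed below 0 at -0.25 ± 0.11. Angpt2, an angiopoietin ligand gene, gave 0.15 ± 0.01 on 4 arrays, with a limma adjusted p of 0.0539. Foxo1 (-0.11) and Foxo3 (-0.08), the genes of FOXO factors whose proteins TIE2 signalling restrains, did not pass.

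Of 13 measured genes around endoglin, 3 passed above 0 and 0 below (limma; 5 and 1 at an unadjusted p under 0.05). They were Acvrl1, the ALK1 receptor that endoglin assists, at 0.34 ± 0.17, and the BMP target genes Id1 at 0.81 ± 0.24 and Id3 at 0.70 ± 0.24. Id1 had log ratios of 0.48, 0.98, 0.74, 0.75 and 1.10 in ova mice 1 to 5, with mouse 1 lowest and mouse 5 highest. The receptor gene Bmpr2 gave 0.21 ± 0.24 (limma adjusted p = 0.106), and the inhibitory SMAD gene Smad6, also a BMP target, gave 0.06. The TGF-beta receptor genes Tgfbr2 (-0.03) and Tgfbr3 (-0.09) did not pass. All 3 calls held without each mouse in turn.

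In the sphingosine 1-phosphate pathway 2 of 9 measured genes passed above 0 and 1 below. S1pr2, a sister receptor gene, passed at 0.30 ± 0.08 and Plpp1, a lipid phosphatase gene, at 0.43 ± 0.24. Plpp3, whose product degrades sphingosine 1-phosphate at the cell surface, passed below 0 at -0.22 ± 0.11, and lost its call without mice 2, 3 and 5 (0.0629, 0.0621 and 0.0687). The kinase genes that make the lipid, Sphk1 (0.14, n = 4) and Sphk2 (-0.02), and the lyase gene Sgpl1 (-0.055, n = 4) did not pass.

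Of 13 measured genes of the flow response, 2 passed above 0 and 1 below. Klf4, the close relative of Klf2 that flow also induces, had log ratios of 0.57, 1.05, 0.88, 1.06 and 1.00 in ova mice 1 to 5. Its mean was 0.91 ± 0.20 (n = 5, limma adjusted p = 0.000529), next to the 1.01 of Klf2. Txnip passed at 0.40 ± 0.10. The KLF2 target genes Nos3, endothelial nitric oxide synthase, and Thbd, thrombomodulin, gave 0.09 ± 0.09 and 0.08 ± 0.15 and did not pass (limma adjusted p = 0.205 and 0.36). The kinase genes of the pathway upstream of Klf2, Map3k3 (0.12), Map2k5 (0.13) and Mapk7 (0.03), did not pass. Hmox1, haem oxygenase 1, passed below 0 at -0.64 ± 0.44, and had adjusted p of 0.0563 and 0.06 without mice 3 and 5.

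Of 6 measured genes of the renin, angiotensin and kinin system other than Ace, 1 passed above 0 and 0 below (limma; the same counts at an unadjusted p under 0.05). It was Cpm, a membrane carboxypeptidase that trims kinins, at 0.61 ± 0.33. The peptidase genes Mme (-0.21 ± 0.29) and Enpep (0.01 ± 0.11) and the kinin receptor gene Bdkrb2 (0.04, n = 4) did not pass.

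Both sister genes of Sox18 passed above 0. Sox17 had 0.59 ± 0.37, with 0.02 in mouse 1 and 1.07 in mouse 5, and Sox7 had 0.15 ± 0.08. Sox7 lost its call whichever mouse was left out, with limma adjusted p between 0.051 and 0.14, while Sox17 kept its call in these 5 fits.

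Of 11 measured genes of endothelial junctions, 5 passed above 0 and 1 below. Cldn5, the main claudin of endothelial tight junctions, had 0.73 ± 0.39, Vcl, vinculin, 0.70 ± 0.16, Esam, an endothelial adhesion molecule, 0.40 ± 0.21, and Ctnna1, alpha-catenin, 0.25 ± 0.12. F11r, the JAM-A gene, had 0.34 ± 0.21 and an adjusted p of 0.0517 without mouse 4. Ctnnb1, beta-catenin, which links cadherins to alpha-catenin, passed below 0 at -0.24 ± 0.07 on 4 arrays, with adjusted p of 0.0569 and 0.0697 without mice 3 and 5.

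**Figure D3:**
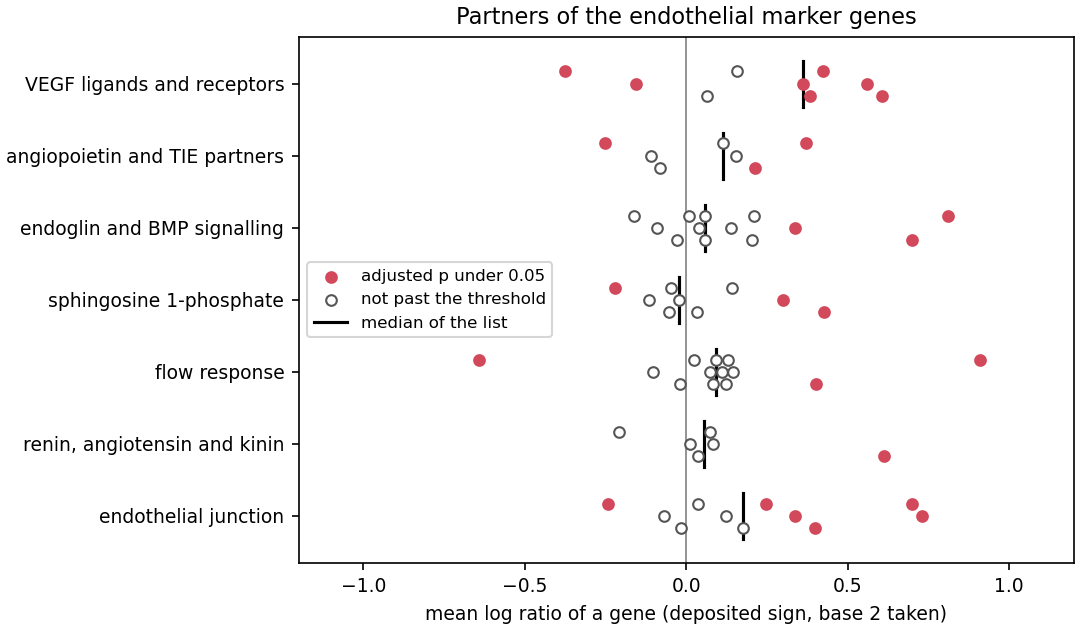
Mean log ratio (horizontal, deposited sign, base 2 taken) of each measured gene in 7 pathway lists; filled points passed an adjusted p of 0.05, open points did not, and black bars are list medians. Of the 7 lists drawn, which leave out the 2 SOXF genes, the VEGF list has the largest median, 0.36; single genes reach 0.91 (Klf4) and -0.64 (Hmox1).

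A list of 64 other endothelial genes, some of them also in the pathway lists, gave 42 with values. Of these, 22 passed above 0 and 0 below (limma, and 25 and 0 at an unadjusted p under 0.05). Their median was 0.31 over the 42 genes, and 15 of the 22 passed without each mouse in turn. The calls of Flt1, Ptprb, Acvrl1, Sox17, Sox7, Cldn5 and Esam are the same ones already given above. Plvap, the diaphragm protein of fenestrae and caveolae, had the largest mean at 0.86 ± 0.14 and lay between 0.70 and 1.08 in all mice. Gpihbp1, which anchors lipoprotein lipase in capillaries, had 0.77 ± 0.36, Ramp2, the adrenomedullin receptor partner, 0.68 ± 0.33, Lmo2, a transcription cofactor, 0.57 ± 0.15, and Clec14a, an endothelial lectin, 0.55 ± 0.12 (SD, n = 5 each, limma adjusted p between 0.00025 and 0.00463). Some endothelial genes named after their values were seen stayed near 0. They include Car4, a gene of lung capillaries, at -0.04 ± 0.35, Cd34 at 0.10 ± 0.19, and the lymphatic genes Lyve1 (0.10 ± 0.38), Prox1 (0.07 ± 0.11) and Mmrn1 (0.04 ± 0.13). Mouse 1 had a Lyve1 ratio of 0.74, and the other mice lay between -0.24 and 0.125.

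Adhesion genes of activated endothelium lay on the other side. Of 4 measured, 0 passed above 0 and 2 below (limma; 0 and 3 at an unadjusted p under 0.05). Sele, E-selectin, which cytokines induce on endothelium, had log ratios of -0.27, -0.25, -0.43, -0.29 and -0.66 in ova mice 1 to 5. All were below 0, and the mean was -0.38 ± 0.17 (n = 5, limma adjusted p = 0.00599). Vcam1 had -0.37 ± 0.36 and did not pass (limma adjusted p = 0.0547), nor did Selp at -0.10 ± 0.09. Cd44, which leukocytes also carry, had -0.40 ± 0.31 and lost its call without mice 3, 4 and 5 (0.0938, 0.0793 and 0.103).

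Markers of other cells in the lung lay on both sides of 0. Of 11 measured leukocyte genes, 0 passed above 0 and 9 below (limma; the same counts at an unadjusted p under 0.05), with a median of -0.43, led by Rac2 at -1.06 ± 0.28 and including the pan-leukocyte gene Ptprc at -0.62 ± 0.22. The naive lymphocyte list, whose cells also express Klf2 and S1pr1, gave 4 measured genes, with 0 above and 2 below (limma; the same counts unadjusted). These were Cd79a at -0.54 ± 0.44 and Il7r at -0.25 ± 0.18, and both lost their calls without mouse 1, 3, 4 or 5 (adjusted p between 0.051 and 0.111). Of 2 measured platelet genes, Ppbp passed below 0 at -0.57 ± 0.15 (n = 4) and Gp9 did not pass at -0.05. The part of these blood cells in the ratios of Klf2, S1pr1 and Pecam1 was not tested.

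Markers of some lung and neighbouring tissue lay with the endothelial genes. Of 8 alveolar type 1 cell genes, 5 passed above 0 and 0 below (limma; 7 and 0 unadjusted), with a median of 0.46; 3 passed without mouse 2, mouse 3 or mouse 5. Hopx, a type 1 cell regulator, had 0.65 ± 0.19 and the water channel gene Aqp5 0.51 ± 0.22. Of 7 alveolar type 2 and club cell genes, 4 passed above 0 and 1 below, with a median of 0.27. Of 6 heart muscle genes, 3 passed above 0 and 0 below (limma, and 5 and 0 unadjusted), with a median of 0.31. Above 0, 5 passed without mouse 1, and 2 passed without mouse 3 or mouse 5. Myl7, an atrial myosin light chain, had 0.68 ± 0.31. Adipoq, a fat gene, had 1.11 ± 0.56. Of 8 smooth muscle and pericyte genes, 0 passed above 0 and 2 below (limma; 0 and 3 unadjusted), Acta2 at -0.30 ± 0.09 and Cnn1 at -0.29 ± 0.11. Of 6 fibroblast genes, 2 passed above 0 and 2 below, with the collagen gene Col1a1 at -0.78 ± 0.20 and the fibroblast transcription factor gene Tcf21 at 0.55 ± 0.20. Col3a1 (-0.75) lost its call without mice 3 and 5 (0.0618 and 0.0678) and Pdgfra (0.35) without mice 3, 4 and 5 (0.0645, 0.0527 and 0.0619). Of 2 red cell genes, Slc4a1, the anion exchanger of the red cell membrane, passed below 0 at -0.63 ± 0.31 and Alas2 did not pass at -0.04. The part of tissue composition in the endothelial ratios was not tested.

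**Figure D4:**
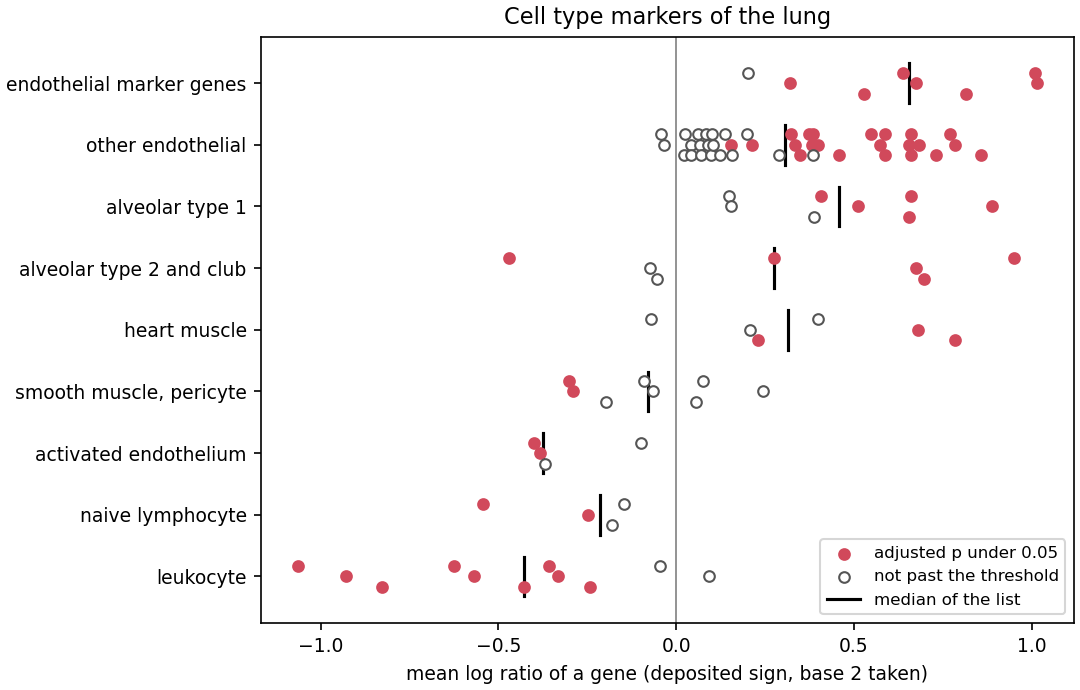
Mean log ratio (horizontal, deposited sign, base 2 taken) of each measured gene in 9 marker lists; filled points passed an adjusted p of 0.05, open points did not, and black bars are list medians. The endothelial marker genes have a median of 0.66, alveolar type 1 genes 0.46 and leukocyte genes -0.43. Other endothelial genes (0.31), heart muscle genes (0.31) and alveolar type 2 and club genes (0.27) have similar medians. Those of smooth muscle and pericyte (-0.08), naive lymphocyte (-0.21) and activated endothelium (-0.38) genes are below 0. Fat, fibroblast, platelet and red cell lists are not drawn, and the 2 measured fat genes had a median of 0.68.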

How the data were processed

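RNA from lungs of 5 ova mice was hybridised against a control pool on 2-colour arrays. The authors deposited 1 log2 ratio per probe and array, base 2 being taken here; the background correction, normalization, dyes and numerator are not stated in the labels or the table. Probe brightness was not used, so faint spots could be recognised only as blanks. The platform annotation gave 1 gene symbol for 14722 of 17280 probes, several for 1 and none for 2557; 14445 matched the gene table of GRCm38.p6 by identifier and 0 symbols changed. Coordinates are given only for the promoter windows, in build GRCm38.p6.

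After median centring of every array, probes with values on at least 4 of 5 arrays were averaged per gene, and all genes were tested with limma 3.58.1 in R 4.3.3 (intercept, eBayes, two-sided, Benjamini-Hochberg over all genes). The script was tested on simulated data. Only the spread among ova mice enters the p-values. The number of arrays limits the precision. The endothelial genes and all lists were chosen with earlier results of these data known. The text names all 10 endothelial genes and the 6 genes most like their average, and draws further names from the list genes that passed and from the pathway genes. Retnla, Clca1 and list genes that did not pass outside the pathways were chosen after their values were seen.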

Additional observations from a re-analysis of the deposited data

Results flagged for a closer look

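In 0 of the 8 measured endothelial genes did 1 mouse stand apart from the other mice by Dixon's criterion. Among all 169 listed genes measured, 15 had such a mouse (8.88%). Chance gives about 1 in 20 where values are normal and genes independent. The listed genes share the 5 arrays, and whether 8.88% exceeds that share was not tested. Mouse 2 was highest for Icam2 (1.10) and lowest for Pgf (-0.69) and Cnn1 (-0.48). Mouse 4 was lowest for Flt4 (-0.23) and Mmrn1 (-0.19) and highest for Notch3 (0.26). Mouse 5 was lowest for Hhex (-0.27) and Arhgdib (-0.83). Mouse 1 was lowest for Tgfb2 (-0.16), Coro1a (-0.22), Aqp5 (0.12), Cyp2f2 (0.11), Myh6 (-0.73), Myl4 (-0.11) and Tnni3 (-0.11).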

How the results depend on the processing

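No paired analysis was possible because there is 1 group of mice against 1 pool. Of the 7 endothelial genes past the threshold above 0, between 5 and 7 passed over 16 alternatives: 5 against a minimum size of 0.2 (limma's treat, where Tek had an adjusted p of 0.0878 and Tie1 of 0.662), 6 without mouse 1, 2, 3 or 5 (Tie1 lost), and 7 in the other 11. No mean changed sign, and Pecam1 did not pass in any of the 16. For the 7 genes above 0 in every mouse, leaving out 1 mouse could not have changed the sign. Mean ratios of Ace (0.74 to 0.92), Eng (0.60 to 0.74), Klf2 (0.88 to 1.10), S1pr1 (0.91 to 1.10) and Sox18 (0.61 to 0.78) stayed past the threshold in all 16. Over all genes, 1199 passed above 0 and 1477 below; with treat 214 and 381 passed, and without each mouse in turn between 672 and 1133 above and between 929 and 1440 below, with fewer arrays in each fit. Each of the 8 measured genes rests on 1 probe with 5 values. Settings that change how probes are averaged, how many arrays are required or only the test could therefore not change its mean. Those that change probe averaging or the number of arrays could move its adjusted p only through the other genes. A call kept under these settings is therefore not separate support.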
